A study of Rattus norvegicus with 19 samples.

Results

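Lysophosphatidate (LPA) receptors and autotaxin are the receiving and the producing side of one lipid signal. The set held 6 genes, the receptors Lpar1, Lpar2, Lpar3, Lpar4 and Lpar6 and the gene of autotaxin, Enpp2, out of 13316 gene symbols on the array. Its members were chosen by symbol, after Lpar4 had been seen to be higher in tumours, so the level of Lpar4 in tumours and nerves is given as a description and without a test. Of the 6 members, 5 had at least 1 probe, with 6 probes in all, and 4 (Lpar1, Lpar3, Lpar4 and Enpp2) passed the filter on detection. Lpar6 had no probe and was left out. Lpar5, another LPA receptor that was not a member, had none either. Lpar2 had 2 probes and neither passed.

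The samples came from rat malignant peripheral nerve sheath tumours (MPNST), which arise from cells of the Schwann lineage. Newborn rats were given the alkylating agent N-ethyl-N-nitrosourea (ENU), 80 µg for each g of body weight, on day 1 of life, and developed tumours of the trigeminal nerve. The tumours were compared with normal trigeminal nerves on 19 Illumina arrays of total RNA. The 12 MPNST, each a single tumour of an adult rat, were 7 of F1 hybrids of BDIV and BDIX, 2 of BDIX, 2 of BDIV and 1 of the congenic strain BDIX.BDIV-Mss4a, with 6 of each sex. The same treatment gave the 1 microtumour, of a congenic male. The 6 nerve arrays held pooled nerves of untreated rats 85 days old, with a male and a female pool for BDIV, BDIX and the congenic strain. F1 hybrids had no nerve pool, and the SD of the nerve group measures how pools, not animals, vary. Nothing in the labels says how many animals a pool held.

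The share of probes detected ran from 44.1% to 54.1% of an array's probes. The background signal took 2 separate ranges, called here high-background (11 arrays, 9 MPNST and both congenic nerve pools) and low-background (8 arrays, 3 MPNST, the microtumour and 4 nerve pools). All BDIV samples are low-background arrays, whereas both BDIX tumours are high-background and both BDIX nerve pools low-background arrays, so in every BDIX difference given here the tissue and the range cannot be told apart. With tissue held constant, 3108 of 11796 features differed between the ranges. Among the marker lists, 6 of 8 Schwann cell genes were measured, and their mean lay between -0.80 and 0.45 in MPNST and between -0.25 and 0.22 in nerve pools, on the log2 scale relative to the nerve mean. All 10 measured sensory neuron genes and all 5 measured myelin genes were lower in MPNST (Mag was detected on no MPNST array), and 6 of 9 macrophage genes were higher. In whole tissue, fewer cells of a type and less RNA per cell cannot be told apart.

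Autotaxin is a secreted enzyme of the ENPP family that cleaves choline from lysophosphatidylcholine and so makes LPA outside the cell. LPA acts through G protein-coupled receptors of separate families. LPAR1, LPAR2 and LPAR3 belong to the EDG family, together with the receptors of sphingosine 1-phosphate, whereas LPAR4, LPAR5 and LPAR6 are relatives of the purinergic P2Y receptors. The receptors couple in different combinations to several classes of G protein. In peripheral nerve, LPAR1 is the receptor through which LPA acts on Schwann cells, and LPA signalling is known for its part in demyelination after nerve injury.

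Values below are normalized log2 intensities, in which the 4 measured members gave a distinct pattern each. Lpar4 was 10.9-fold higher in MPNST than in nerve, and Lpar1 and Enpp2 were higher by about the same factor as each other, 2.13-fold and 2.28-fold. Lpar3 was near background in MPNST and was detected in every nerve pool. In the microtumour Lpar1 was at the MPNST level and Lpar4 at the nerve level. The fit of MPNST against nerve called 45.4% of all features, 24.6% as higher and 20.8% as lower in MPNST (limma, adjusted p under 0.05), so the calls of Lpar1 and Enpp2 stand against a high background of calls. Lpar3 passed the filter through the nerve pools, where it is higher, so its call is not counted.

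**Figure D1:**
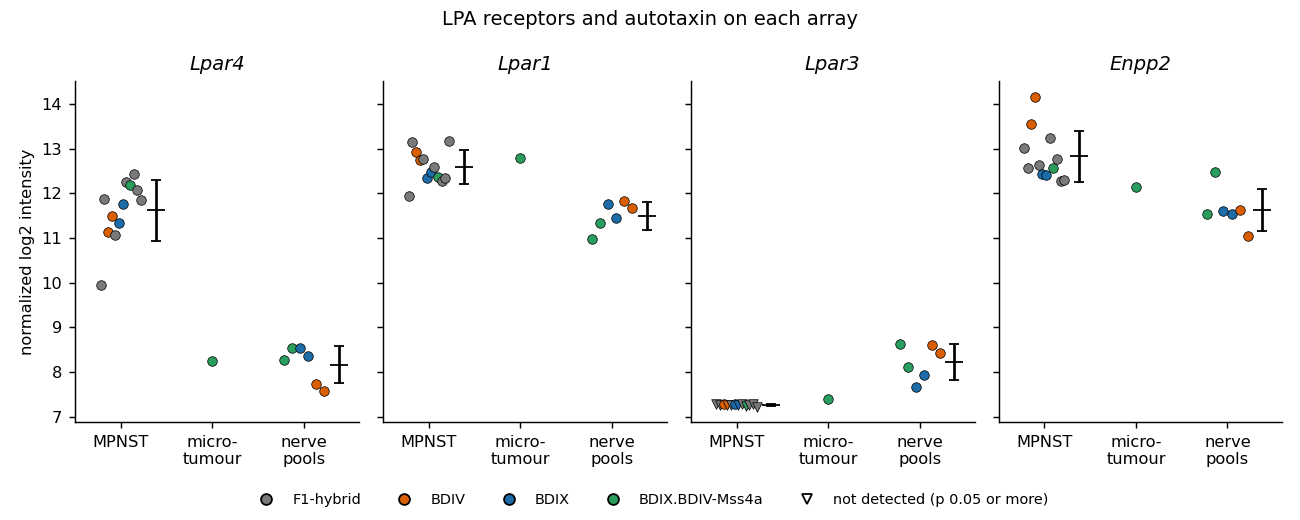
Normalized log2 intensity (vertical axis) of Lpar4, Lpar1, Lpar3 and Enpp2 on each of the 19 arrays, with MPNST left of the microtumour and the nerve pools. Points are arrays coloured by strain, triangles are arrays on which the gene was not detected, and bars give the mean ± SD (n = 12 MPNST, n = 6 nerve pools). Lpar4 in MPNST spans 9.94 to 12.44, clear of the nerve pools at 7.59 to 8.54, and the microtumour lies at 8.24.

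Lpar4 (chromosome X) encodes the P2Y-related receptor that couples, among others, to the stimulatory G protein. It had a lowest value of 9.94, a median of 11.81 and a highest of 12.44 in MPNST, 8.24 in the microtumour, and a lowest of 7.59, a median of 8.31 and a highest of 8.54 in nerve pools. Every MPNST lay above every nerve pool, and the microtumour lay among the nerve pools. The mean was 11.62 ± 0.69 in MPNST and 8.17 ± 0.41 in nerve (SD, n = 12 and n = 6), a difference of 3.45 with a standard error of 0.30. By that difference it ranked 14 from the highest of 11796 features. In the raw signal before normalization, Lpar4 read 834 to 5014 in MPNST, 740 in the microtumour and 292 to 606 in nerve pools.

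The higher level was present in each strain that had both tissues. Lpar4 had 11.14 and 11.50 in BDIV MPNST against 7.73 and 7.59 in BDIV nerve, and 11.33 and 11.77 in BDIX MPNST against 8.54 and 8.35 in BDIX nerve. In the congenic strain the single MPNST had 12.18 and the nerve pools had 8.26 and 8.54. The difference was 3.66 in BDIV, 3.10 in BDIX and 3.78 in the congenic strain. It was 3.26 within the high-background arrays and 3.44 within the low-background arrays.

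Lpar4 also varied widely between tumours, with an SD among MPNST larger than that of 95.3% of all features. The lowest tumour, MPNST 1, an F1 hybrid female, lay at 9.94, well below the next lowest, MPNST 2, at 11.07. The same tumour had the lowest mean of the Schwann cell genes, -0.80, and the highest means of the macrophage genes, 1.75, and the endothelial genes, 0.55, among the 12 MPNST, relative to nerve. The part of these cell types in its Lpar4 level was not tested. Without this tumour the difference between MPNST and nerve was 3.60.

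Besides Lpar4, only Lpar1 and Lpar3 could be compared, since Lpar2 was at background and Lpar5 and Lpar6 had no probe. Lpar1 (chromosome 5), the EDG-family receptor through which Schwann cells respond to LPA, was higher in MPNST, as Lpar4 was. It had a lowest value of 11.94, a median of 12.53 and a highest of 13.16 in MPNST, 12.79 in the microtumour, and a lowest of 10.98, a median of 11.56 and a highest of 11.82 in nerve pools. The 2 groups did not overlap, although the lowest MPNST and the highest nerve pool were close. The mean was 12.59 ± 0.37 in MPNST and 11.50 ± 0.32 in nerve (SD, n = 12 and n = 6), a difference of 1.09 with a standard error of 0.17 and a limma adjusted p of 6.73e-05. In the same comparison, 8.38% of all features had every MPNST above every nerve pool. Lpar1 was the 1 measured member that differed between the ranges of background with tissue held constant, where 3108 of 11796 features did. It differed by 0.48 on the log2 scale (low minus high, limma adjusted p = 0.0198). Its difference between tissues was 1.31 within the high-background arrays and 1.27 within the low-background arrays.

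The lowest Lpar1 in MPNST was again in MPNST 1, and the highest values, 13.16 and 13.15, were in MPNST 9 and MPNST 10, both F1 hybrid males. MPNST 2 and MPNST 10 were the tumours with the highest skeletal muscle genes, 4.19 and 3.17 above the nerve mean, and without both the difference in Lpar1 was 1.01. By strain, Lpar1 had 12.92 and 12.74 in BDIV MPNST against 11.82 and 11.67 in BDIV nerve, 12.34 and 12.47 in BDIX MPNST against 11.75 and 11.44 in BDIX nerve, and 12.38 in the congenic MPNST against 10.98 and 11.34 in congenic nerve. The tumours lay above the pools in every strain.

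Lpar3 (chromosome 2), the EDG-family receptor that couples to Gq and the inhibitory G proteins, went the other way. It had a lowest value of 7.23, a median of 7.27 and a highest of 7.29 in MPNST, 7.39 in the microtumour, and a lowest of 7.66, a median of 8.27 and a highest of 8.63 in nerve pools. It was detected on 2 of 12 MPNST arrays, in the microtumour and in 6 of 6 nerve pools, so the MPNST values describe the background more than a level. The mean was 7.27 ± 0.02 in MPNST and 8.23 ± 0.39 in nerve (SD, n = 12 and n = 6), a difference of -0.96. Every MPNST lay below every nerve pool, as held for 8.59% of all features.

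The probe passed the filter through the nerve pools, so a difference had to follow, and no p-value or fold is given for it. The offset added in normalization draws dim values together, so -0.96 is no measure of the size of the change. In the authors' background-subtracted intensities, Lpar3 read -2.65 to 21.9 in MPNST, 76.8 in the microtumour and 174 to 503 in nerve pools, and with those values set to a floor of 16 the difference was -4.29. All 10 measured sensory neuron markers fell in MPNST as well, with a mean between -5.02 and -3.13 in MPNST, -0.88 in the microtumour and between -0.51 and 0.65 in nerve pools. The part of neuronal RNA in the level of Lpar3 was not tested.

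Lpar2 (chromosome 16), the third EDG-family LPA receptor, was not measurable. One of its probes was detected on 0 of 19 arrays. The other was detected on 4, namely 1 MPNST (MPNST 9), the microtumour and 2 nerve pools, and its raw signal stayed between 65.0 and 119. Both lay at background in both tissues, which bounds the signal of these probes and does not show that the gene is silent.

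Enpp2 (chromosome 7), the gene of autotaxin, was higher in MPNST. It had a lowest value of 12.28, a median of 12.61 and a highest of 14.16 in MPNST, 12.13 in the microtumour, and a lowest of 11.04, a median of 11.57 and a highest of 12.49 in nerve pools. The groups overlapped through 1 pool, nerve 2, at 12.49, whereas the other 5 pools lay between 11.04 and 11.62, below all tumours. The mean was 12.83 ± 0.57 in MPNST and 11.63 ± 0.47 in nerve (SD, n = 12 and n = 6), a difference of 1.19 with a standard error of 0.26 and a limma adjusted p of 0.00127. Nerve 2 was also the pool with the highest mean of oligodendrocyte markers, 0.72 above the nerve mean. The part of oligodendrocyte RNA in the level of Enpp2 was not tested. Of the 6 measured oligodendrocyte markers, 4 were lower in MPNST, with means of -1.54 to -0.64 in MPNST, -0.54 in the microtumour and -0.44 to 0.72 in nerve pools. Without nerve 2 and nerve 5, the 2 pools with the highest such means, the difference in Enpp2 was 1.40 (limma adjusted p = 0.00138), a setting chosen after seeing the data.

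The size of the Enpp2 difference depended on the arrays compared. It was 0.65 within the high-background arrays (9 MPNST and 2 nerve pools, limma adjusted p = 0.0973) and 1.88 within the low-background arrays (3 MPNST and 4 nerve pools, limma adjusted p = 0.0398). Over all alternatives the adjusted p ranged from 0.000675 to 0.0973.

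**Figure D2:**
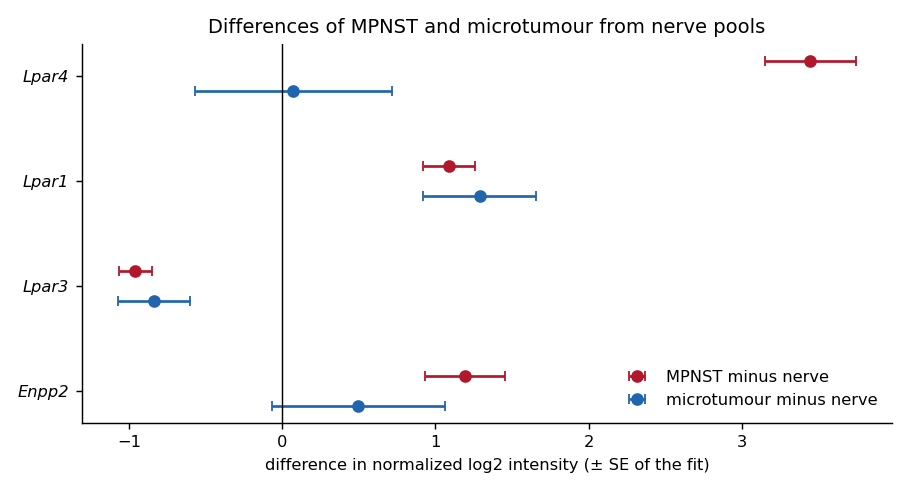
Difference from the nerve pools in normalized log2 intensity (horizontal axis) for each measured member, with bars of 1 standard error from the limma fit. Red points are MPNST minus nerve (n = 12 and n = 6) and blue points the single microtumour minus nerve. For Lpar1 the differences are 1.09 and 1.29, and for Lpar4 they are 3.45 and 0.07.

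The single microtumour, labelled apart from the MPNST, took a different place for each member. With the nerve mean as 0 and the MPNST mean as 1, it lay at 0.02 for Lpar4, at 0.42 for Enpp2, at 0.87 for Lpar3 and at 1.18 for Lpar1. Against nerve the differences were 0.07 for Lpar4, 0.50 for Enpp2, -0.84 for Lpar3 and 1.29 for Lpar1, with standard errors of 0.64, 0.57, 0.23 and 0.37. Neither Lpar1 nor Enpp2 was called (limma adjusted p = 0.0709 and 0.828), where 3.04% of all features were called. At an unadjusted p under 0.05, Lpar1 passed, as did 14.9% of all features. The call of Lpar1 changed with the setting, since it passed with the background range as a block. Lpar3 passed the detection filter through the nerve pools, which favours a fall from nerve, so its test against nerve is not counted.

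Against MPNST the microtumour differed by -3.38 in Lpar4 (standard error 0.62), by -0.70 in Enpp2, by 0.12 in Lpar3 and by 0.20 in Lpar1. None of the 3 tested members was called, where 2.72% of all features were. The microtumour lay below every MPNST in Lpar4 and, narrowly, in Enpp2 (12.13 against a lowest MPNST of 12.28), and inside their range in Lpar1. The share of all features with such an order was not counted, so the order is not read as a result. The microtumour is 1 array, and its spread was taken to be that of the others.

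Strain was compared next, because susceptibility to ENU differs between BDIV and BDIX rats. In MPNST, Enpp2 was highest in the BDIV tumours, at 13.54 and 14.16, against 12.43 and 12.40 in the BDIX tumours, 12.57 in the congenic tumour and 12.28 to 13.24 in the 7 F1 hybrid tumours. Neither BDIV tumour overlapped any other tumour. How many features show that order was not counted, so it is not read as a result. The F test over BDIV, BDIX and F1 hybrids did not pass after adjustment (F = 13.8, limma adjusted p = 0.0618, unadjusted p = 0.00248), where 2.66% of all features passed. Before adjustment, 22.6% of all features had a p under 0.05 in this F test. Both BDIV tumours were low-background arrays, as was the F1 hybrid MPNST 9, in which Enpp2 was 12.29. Lpar1, Lpar3 and Lpar4 gave F statistics of 0.50, 0.17 and 0.29.

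In the nerve pools the order was different. BDIV pools had the lowest Lpar4, 7.73 and 7.59, against 8.54 and 8.35 in BDIX pools, a difference of -0.78 with a standard error of 0.15 (limma adjusted p = 0.0691). Lpar3 was higher in BDIV pools, 8.61 and 8.44, than in BDIX pools, 7.66 and 7.93, a difference of 0.73 with a standard error of 0.23 (limma adjusted p = 0.153). Lpar1 and Enpp2 differed by 0.15 and -0.23. No member was called, where 13.4% of all features were. Lpar3 and Lpar4 had an unadjusted p under 0.05, as did 32.6% of all features. The 2 BDIV pools were the arrays most alike in the series, with a correlation of 0.997, so they may hold less than the spread of separate pools.

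**Figure D3:**
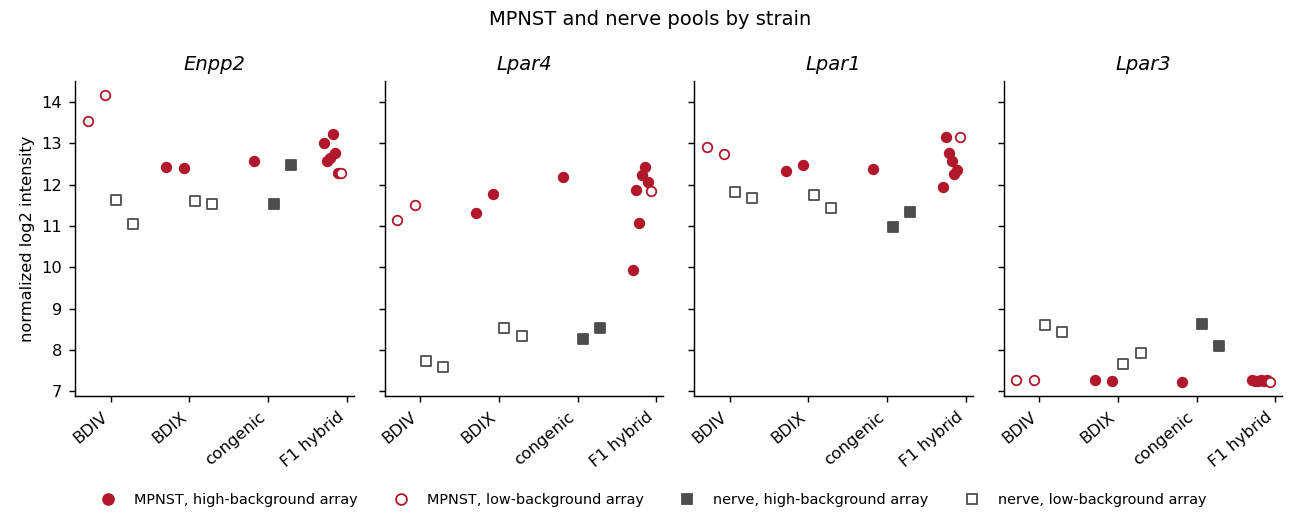
Normalized log2 intensity (vertical axis) of Enpp2, Lpar4, Lpar1 and Lpar3 by strain. Red circles are MPNST and grey squares nerve pools, filled for high-background and open for low-background arrays. The BDIV tumours lead in Enpp2 at 13.54 and 14.16, and the BDIV pools are lowest in Lpar4 at 7.73 and 7.59.

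Whether the difference between MPNST and nerve itself depended on strain was tested with an interaction term. Because the tissues of BDIX lie in different ranges of background and those of BDIV do not, strain and range cannot be told apart in these terms. Of all features, 12.9% passed, and the 1 member among them was Lpar3, with an interaction of -0.72. Its MPNST were at background in both strains, at 7.27 and 7.28 in BDIV and 7.28 and 7.26 in BDIX. The term therefore restates the difference between the strains' nerve pools, which was not called when tested directly, and it is not read as a strain effect on the tumours. For Enpp2 the difference was 2.52 in BDIV, or 5.74-fold, and 0.85 in BDIX, or 1.80-fold. Its interaction of 1.67 with a standard error of 0.51 fell just short of the threshold (limma adjusted p = 0.051), and the adjusted p ran from 0.0342 to 0.179 when 1 array was left out (passing without MPNST 1, MPNST 5, MPNST 9, MPNST 11, nerve 1 or nerve 2). For Lpar4 and Lpar1 the interactions were 0.56 and 0.27, with standard errors of 0.88 and 0.48.

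Males and females were not told apart by any member. In MPNST with strain as a covariate, 0% of all features were called by limma (859 of 11796 at an unadjusted p under 0.05), and no member was called. In nerve the share was also 0% (503 features unadjusted), and for the difference between tissues in males against females it was 0% (143 features unadjusted). No member had an unadjusted p under 0.05 in any of the 3 comparisons. Lpar4 lies on the X chromosome and averaged 11.80 ± 0.47 in male and 11.43 ± 0.86 in female MPNST (SD, n = 6 each), and 8.18 ± 0.41 in male and 8.16 ± 0.50 in female nerve pools (SD, n = 3 each). The female mean in MPNST includes MPNST 1, the lowest tumour. The deposited tables exchange the columns of nerve 5 and nerve 6, a male and a female BDIV pool, so only the sex of these 2 arrays depends on the table used.

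Across the 12 MPNST the measured members were then set against each other, to see whether tumours with more Lpar4 also had more of another receptor or of autotaxin. Lpar4 and Lpar1 gave a Pearson r of 0.23 (permutation p = 0.475, adjusted over 6 pairs 0.57) and a Spearman coefficient of -0.08 (permutation p = 0.816). Without MPNST 9 and MPNST 10, the tumours farthest from the median of Lpar1, r was 0.17. Lpar4 and Enpp2 gave r of -0.24 (permutation p = 0.444, adjusted 0.57) and a Spearman coefficient of -0.20 (permutation p = 0.522), and r of -0.34 without MPNST 1 and MPNST 2. Lpar1 and Enpp2 gave r of 0.08 (permutation p = 0.81, adjusted 0.81) and a Spearman coefficient of 0.02 (permutation p = 0.952), and r of 0.47 without MPNST 9 and MPNST 10. The other 3 pairs involve Lpar3, which was not detected on 10 of the 12 MPNST arrays, so they describe background, although they enter the adjustment. The sign for Lpar4 with Lpar1 changed in some settings when 2 tumours were left out. Taken as residuals from the mean of each background range, its r was 0.36, but -0.31 without MPNST 10 and MPNST 1, and in the authors' values it was 0.24, but -0.46 without the same tumours. With median scaling in place of quantile normalization, r was 0.60 for Lpar4 with Lpar1 (adjusted permutation p = 0.198) and 0.28 for Lpar4 with Enpp2.

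**Figure D4:**
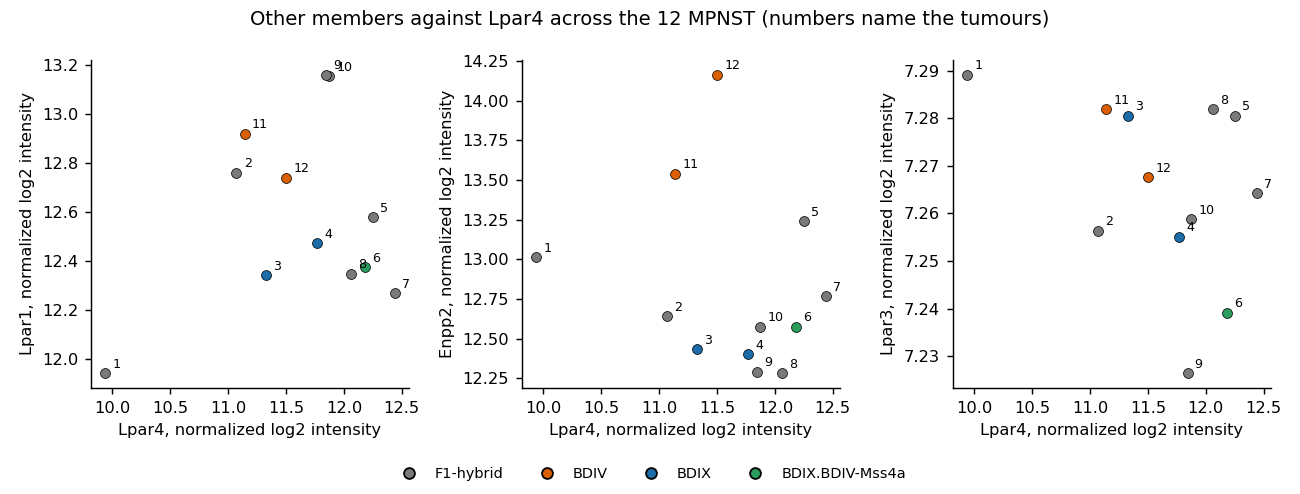
Lpar1, Enpp2 and Lpar3 (vertical axes) against Lpar4 (horizontal axis) across the 12 MPNST, all in normalized log2 intensity. Points are tumours coloured by strain, with their number. MPNST 1 is lowest in both Lpar4 and Lpar1, and the scale of Lpar3 spans only 7.23 to 7.29.

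The genes most like Lpar4 across the 12 MPNST, by Pearson r among 8573 features with a symbol, were Arpc5 (0.90), a subunit of the actin-branching complex, Rnd3 (0.89), Pde8a (0.88), a cyclic AMP phosphodiesterase, Ccar1 (0.88), a transcriptional coactivator, and Col5a1 (0.87), a fibrillar collagen. Without MPNST 1 and MPNST 2 these values were 0.63 to 0.75. Within the 9 high-background tumours, which include MPNST 1 and MPNST 2, they were 0.88 to 0.93. The genes most like Enpp2 were Cadm4 (0.95), an adhesion molecule of Schwann cells, Alpl (0.95), an alkaline phosphatase, Spire1 (0.94), an actin nucleator, Pafah1b1 (0.94), a regulator of dynein, and Adhfe1 (0.92), a mitochondrial dehydrogenase. Without the BDIV tumours MPNST 11 and MPNST 12 they were 0.76 to 0.92, and within the 9 high-background tumours 0.72 to 0.91. These correlations describe 12 tumours that share arrays and normalization.

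The wider pathway was described with 8 lists of genes, 62 of them measured. Of these, 21 were higher and 8 lower in MPNST (limma, adjusted p under 0.05), or 33.9% and 12.9%, beside 24.6% and 20.8% of all features. With median scaling 12 of the 62 were higher and 8 lower, where 1265 of all 11796 features were higher. Among called features only, the share of higher ones was 30.4%, against 54.2% with quantile normalization. Folds of list genes with a mean near background in a tissue are no measure of size, since the offset draws dim values together.

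Enzymes that make LPA or its precursors had 3 of 11 measured members higher and 1 lower, with a median difference of 0.02 that equals the 0.02 of all features. Pla1a, a secreted phospholipase that yields lysophospholipids, was 4.40-fold higher, at 9.77 ± 0.80 in MPNST and 7.63 ± 0.21 in nerve (limma adjusted p = 5.02e-05), and the microtumour had 9.60. Pla2g4a, the cytosolic phospholipase A2, and Gpat4, a glycerol phosphate acyltransferase, were 1.27-fold and 1.31-fold higher. The call of Gpat4 was lost with median scaling, with the background range as a block and without nerve 3, nerve 5 or nerve 6 (adjusted p = 0.0521 to 0.0786). Pla2g6, a calcium-independent phospholipase, was 1.64-fold lower. Pla2g2a, a secreted phospholipase named here after its values were seen, had 9.99 in the microtumour against 7.63 ± 0.23 in MPNST and 7.38 ± 0.16 in nerve. The microtumour differed from nerve by 2.61, given without a test because the gene was named after this value was seen. Of the other ENPP family genes, 3 were measured and none was called in MPNST.

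The list of LPA breakdown and acylation, with related phosphatase and acyltransferase genes, had 12 measured genes. Beside 24.6% higher and 20.8% lower over all features, 2 of these genes were higher and 4 lower, with a median of -0.03. Whether each acts on LPA was not tested. Mboat1, a lysophospholipid acyltransferase, was 6.26-fold lower, at 7.75 ± 0.19 in MPNST and 10.40 ± 0.90 in nerve (limma adjusted p = 3.27e-07). The lipid phosphate phosphatases Plpp3 and Plpp2, which dephosphorylate LPA at the cell surface, were 2.97-fold and 2.61-fold lower. Plpp3 had 11.53 in the microtumour, near the nerve mean of 11.75, whereas Plpp2 was at 7.88 there, below the MPNST mean of 8.34. Acp6, a lysophosphatidic acid phosphatase of mitochondria, was 2.58-fold higher (limma adjusted p = 3.08e-06) and Agpat2, which acylates LPA to phosphatidic acid, was 1.32-fold higher.

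Related receptors moved in both directions. S1pr2, a receptor of sphingosine 1-phosphate, was 10.2-fold higher, at 12.64 ± 0.46 in MPNST and 9.29 ± 0.84 in nerve (limma adjusted p = 9.44e-08), a difference of 3.35 beside the 3.45 of Lpar4. All MPNST lay above all nerve pools in S1pr2, and the microtumour, at 11.65, lay below the lowest MPNST, at 11.83. S1pr5, a receptor of oligodendrocytes and natural killer cells, was detected on 3 of 12 MPNST arrays and in all nerve pools. It passed the filter through the nerve pools, so its call, though among the 8 lower list genes, is not read as a result. Its difference of -0.43 became -0.20 without nerve 2, and its call was lost in most fits that left out 1 array. S1pr3 and S1pr4 did not pass, with differences of 0.05 and -0.02. Of the P2Y relatives, P2ry12 and P2ry13, receptors of microglia and macrophages, were 1.42-fold and 1.07-fold higher, where 6 of 9 macrophage markers were higher too. The part of macrophages in these levels was not tested. P2ry1 and P2ry2, nucleotide receptors that couple to Gq, were 1.78-fold and 1.99-fold lower, and P2ry4 and P2ry14 did not pass. P2ry12 and P2ry13 averaged 7.33 and 7.29 in nerve and P2ry1 averaged 7.35 in MPNST, near background, so their folds are no measure of size.

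Beside 24.6% of all features called higher and 20.8% lower, 2 of 6 measured G protein subunits downstream of the receptors were higher and none lower. These were Gnas, the stimulatory subunit, by 1.64-fold, and Gna11, of the Gq family, by 1.12-fold, and both calls were lost with median scaling. That of Gnas was also lost without any 1 of the nerve pools (adjusted p = 0.0595 to 0.07). Gnas averaged 7.31 in nerve, near background, so its fold is no measure of size.

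LPA activates SRF and YAP, which act on transcription, in many cells. Of 10 measured genes induced through SRF or YAP, 6 were higher and none lower, with a median of 0.69. Over all features, 24.6% were higher and 20.8% lower, with a median of 0.02. The part of LPA in the levels of these genes was not tested. Ccn2, a matricellular protein, was 7.55-fold higher, at 13.15 ± 0.63 in MPNST and 10.23 ± 0.71 in nerve, and Myl9, a myosin light chain, was 6.52-fold higher, at 10.28 ± 0.62 in MPNST and 7.58 ± 0.14 in nerve. Tagln, an actin-binding protein of smooth muscle, was 2.09-fold higher, and its call was lost in most other settings. In the microtumour Ccn2 was 10.52 and Myl9 was 7.88, with differences from MPNST of -2.63 and -2.40 (limma adjusted p = 0.0409 and 0.017). The nerve pools ran from 9.46 to 11.31 in Ccn2, with the microtumour inside that range, and from 7.43 to 7.77 in Myl9, with the microtumour above it. Of the 3 measured markers of pericytes and smooth muscle, 2 were higher in MPNST, with means of 0.19 to 1.71 in MPNST, 0.24 in the microtumour and -0.53 to 0.46 in nerve pools. Tagln belongs to both lists and is among these 2, so the lists are not independent. The part of pericytes and smooth muscle in the level of the genes induced through SRF or YAP was not tested.

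**Figure D5:**
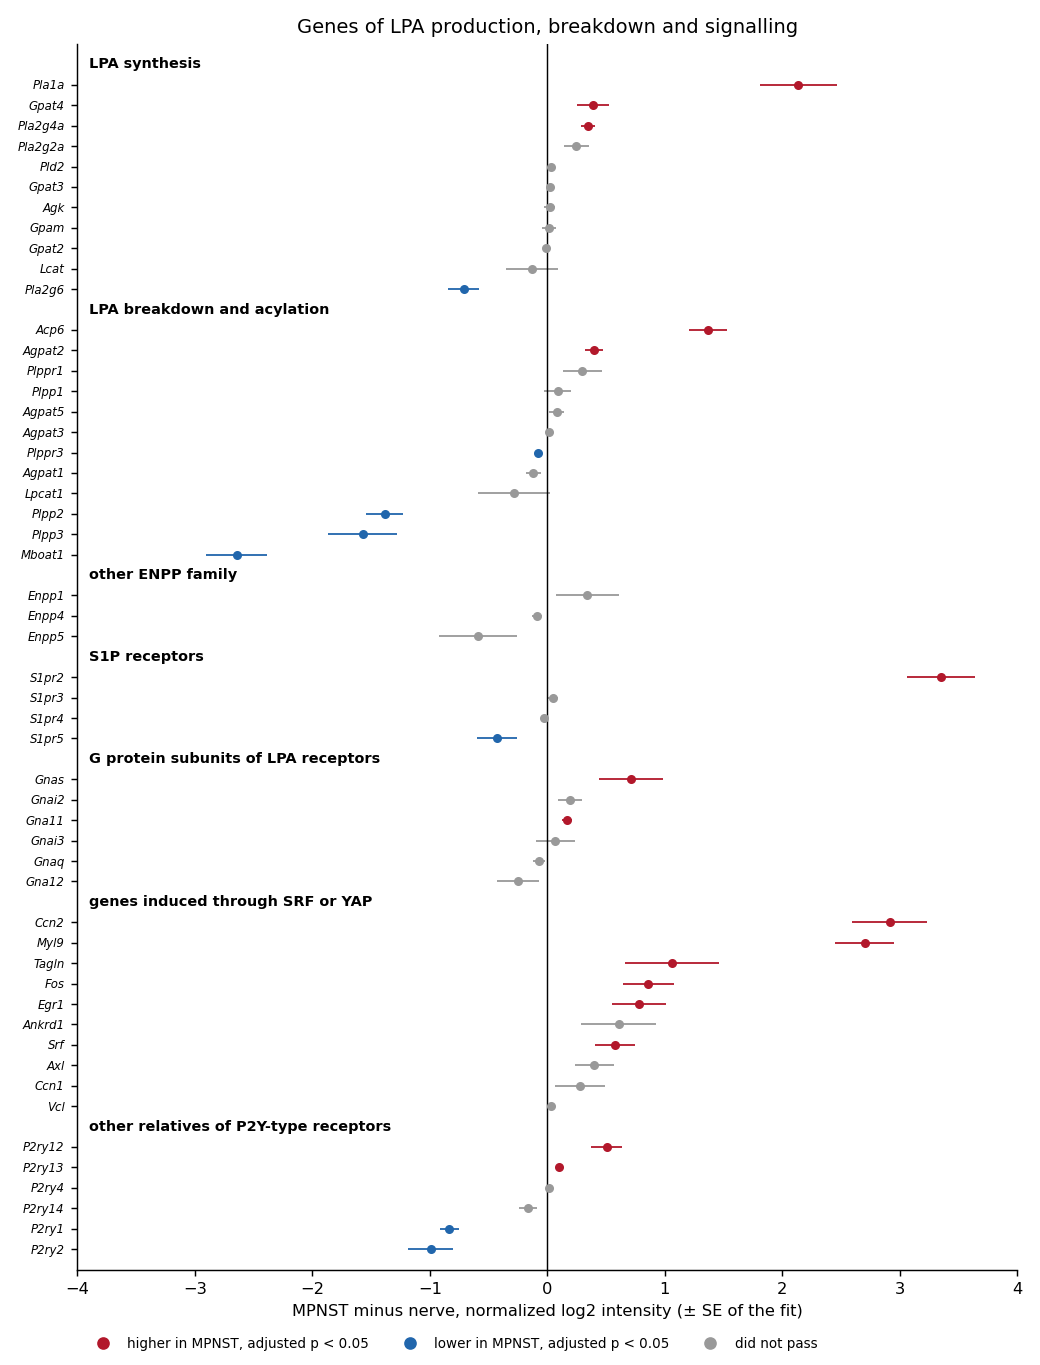
Difference between MPNST and nerve in normalized log2 intensity (horizontal axis, MPNST minus nerve) for the 52 measured genes of 7 of the lists, with bars of 1 standard error from the limma fit. Red points were higher and blue points lower at an adjusted p under 0.05, and grey points did not pass. S1pr2 at 3.35 and Ccn2 at 2.92 stand at the right and Mboat1 at -2.65 at the left.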

How the data were processed

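Total RNA of the 19 samples was hybridized as biotin-labelled cRNA and read with BeadStudio 3.0, per the submitters' processing notes. Per the file headers, the raw table holds the mean bead intensity of every probe, not normalized, and beside it a detection p-value. The authors also deposited a table of background-subtracted, scaled intensity values. In it, 17 of 19 columns were straight-line functions of the same sample's raw column (largest residual 0.0145 intensity units), and nerve 5 and nerve 6 matched each other's. Nerve samples were taken as untreated, as tagged, although ENU stands in their protocol text.

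The neqc function of limma 3.58.1 (R 4.3.3, offset of 16) corrected the raw intensities for background, quantile normalized them and took log2. Of 21791 probes, 11816 were detected (p-value under 0.05) on 6 or more arrays and were kept. The probe with the highest mean was used for each symbol, leaving 11796 features, 8575 with a symbol. Symbols came from the platform annotation (1 symbol for 13387 probes, none for 8404) and chromosomes from RefSeq genes of GRCr8. Positions are not given, since the files name no build.

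Comparisons used the moderated two-sided test of limma, adjusted by Benjamini-Hochberg over all features, with the tissues in 1 fit of the 19 arrays. Sex was tested with strain as a covariate and strain with sex. Correlations used 100000 permutations. The code was tested on simulated data. P-values measure the spread between these arrays and pools, and the number of arrays limits the precision.

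The members, the lists and the tests were chosen with earlier results of these data known. Named were all members, per list up to 3 called genes with the largest rise and 3 with the largest fall, the measured S1P and P2Y relatives, and the 5 genes most like Lpar4 and Enpp2. Pla2g2a was named after its values were seen. One of the 8 lists enters the totals and is otherwise not reported here. Sample numbers do not pair the arrays: same-numbered MPNST and nerve deviated from their group means with correlations of -0.30 to 0.21.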

Additional observations from a re-analysis of the deposited data

Results flagged for a closer look

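The difference between MPNST and nerve in Lpar3 differed between the strains by the interaction test, by -0.72 on the log2 scale (BDIV minus BDIX, limma adjusted p = 0.0216). In both strains the MPNST were at background, so the term restates the difference between nerve pools, which was not called when tested directly (limma adjusted p = 0.153). The call was lost without nerve 3, nerve 5, MPNST 3, MPNST 4 or MPNST 12 (adjusted p = 0.0562 to 0.0937), with nerve 5 and nerve 6 averaged and in the authors' values. No member in the 6 nerve pools had an array far enough from the others to be listed as an outlier, Enpp2 in nerve 2 included.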

How the results depend on the processing

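The calls of MPNST against nerve in Lpar1 and Enpp2 held in all 18 fits that left out 1 array. The call of Lpar3 follows from the filter and says nothing about stability. Among the other alternatives for this comparison, Lpar1 was called in all 15, with differences of 0.91 to 1.31, and the untested difference of Lpar4 ran from 3.25 to 3.60. Enpp2 lost its call within the high-background arrays (0.65), and Lpar3 did not pass a filter of detection on 12 arrays. The replicate block paired same-numbered MPNST and nerve, so it kept only the nerve pools and the tumours that share a number with a pool. In this smaller fit the differences were 0.91 for Lpar1, 1.08 for Enpp2, -0.96 for Lpar3 and 3.25 for Lpar4. Lpar1 and Enpp2 stayed called, and 3988 of all features were called in place of 5359. Of the named list genes, S1pr5 (limma adjusted p = 0.272), Gpat4 (0.0554) and Tagln (0.0816) lost their calls. The part of the pairing and that of the tumours left out were not told apart. Among the pathway genes 29 were called, 15 within the low-background arrays, where 2224 of all features were called, and 24 to 31 when 1 array was left out.

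For the microtumour against nerve, 1 member in place of 0 was called in the authors' values (Lpar3), with sex and strain as covariates (Lpar3) and with the background range as a block (Lpar1), and 0 to 1 when 1 array was left out (Lpar1 without MPNST 1, Lpar3 without nerve 3 or nerve 4). The calls of Lpar3 against nerve were favoured by the filter and are not read as results. Against MPNST, 1 in place of 0 was called in the authors' values (Lpar3). The strain test in MPNST called 1 in place of 0 with array weights (Enpp2) and 0 to 1 when 1 array was left out (Enpp2 without MPNST 9 or MPNST 11). The interaction with strain called 0 in place of 1 in the authors' values and with nerve 5 and nerve 6 averaged, and 0 to 2 when 1 array was left out.

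Signs changed only in results that were not called. Lpar4 in the microtumour against nerve was -0.48 with sex and strain as covariates, -0.030 with nerve 5 and nerve 6 averaged and -0.045 to 0.15 when 1 array was left out. Lpar1 in the microtumour against MPNST was -0.16 with the background range as a block. In BDIV against BDIX nerve, Enpp2 was 0.37 with median scaling and -0.75 to 0.28 when 1 pool was left out, and Lpar1 was -0.061 to 0.36. The interaction of Lpar1 was -0.35 with median scaling. Over all 12 MPNST, correlations changed sign for Lpar1 with Enpp2 (-0.33 as residuals from each range) and Lpar4 with Enpp2 (0.28 with median scaling). Without the 2 tumours farthest from the median, signs also changed for Lpar1 with Lpar4 (-0.31 as residuals, -0.46 in the authors' values) and, in the authors' values, for the background-level Lpar3 with Lpar4 (0.11) and with Lpar1 (0.25). For Lpar3 with Enpp2 it was -0.23 with median scaling. The cause of these changes was not tested. Settings that leave out nerve 2 and nerve 5, or MPNST 2 and MPNST 10, or average nerve 5 and nerve 6, were chosen after seeing the data. The alternative of another probe of a member gave no value, since Lpar2 alone had more than 1 probe and neither passed. Exchanging the signals of nerve 5 and nerve 6 left 0 members called in the comparisons of sex.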
